A study of Saccharomyces cerevisiae with 10 samples.

Results

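The mitochondrial ribosomal protein genes of budding yeast were examined in cells carrying the prion [BIG+] and in naive cells without it. These 66 of the 7032 features in the deposited expression table were taken by name: mRNA rows whose standard R64 gene name is MRPL, MRPS, RSM or MRP followed by a number, without MRP8, which fits the pattern but is not counted as a mitoribosomal gene. By name they were 34 MRPL genes of the large subunit, 20 MRPS and RSM genes of the small subunit, and 12 MRP-number genes, whose name does not tell the subunit. The [BIG+] libraries, labelled YDJ1952, and the naive libraries, labelled YDJ128, numbered 5 each and were all described as BY4741 with a wild-type genotype. BY4741 is a MATa haploid laboratory strain that lacks URA3, LEU2 and MET17. The labels describe independent colonies grown in rich medium (YPD) at 30 °C to an optical density of 1.0, from which total RNA was taken and depleted of rRNA. If the name stems are separate strains, any other difference between them cannot be told apart from the prion. No number of founding clones is given in the sources used here.

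[BIG+] is a heritable state carried by a protein, the pseudouridine synthase Pus4, rather than by a change in DNA. Mitochondrial ribosomes are built from rRNAs made in the organelle and from proteins that, apart from Var1, are encoded in the nucleus, made in the cytosol and imported. They translate the few mitochondrial mRNAs, which encode mainly subunits of the respiratory chain and of ATP synthase. In systematic names such as uL30m or mS37, u marks a protein shared with all ribosomes, b one shared with bacteria, m at the front one found in mitochondrial ribosomes, and L or S the large or small subunit. The mRNAs of this gene family are known targets of Puf3, an RNA-binding protein that recognises a short element in the 3' untranslated region and influences the decay and translation of its targets.

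The Puf3 element was looked for first, because it is a feature of these genes that the names did not use. The letters TGTANATA, with N for any base, were searched on the coding strand in the 200 bases after the coding sequence in the R64 genome from RefSeq, a window that can run past the transcript's end or into a neighbouring gene. They were found at 65 of the 66 genes (98.5%), against 779 of the 5829 other nuclear protein-coding genes in the table (13.4%). On the opposite strand of the same windows the shares were 18.2% and 13.1%. The longer form CNTGTANATA, which has a C at the second base before the 8-letter element and overlaps it by design, was present at 52 of the 66 genes (78.8%) and at 201 of the other genes (3.45%). Of the 79 matches in the family 36 read TGTAAATA, 25 read TGTATATA, 17 read TGTACATA and 1 read TGTAGATA, and 13 genes had more than 1 match. The first match began a median of 51 bases after the coding sequence (range 8 to 139). Both subunits carried it alike, at 34 of 34 MRPL genes, 19 of 20 MRPS and RSM genes and 12 of 12 MRP-number genes. The single gene without a match was RSM22, a small subunit protein that resembles methyltransferases, and no match says only that these letters are absent from that window. RSM22 is also the one member to which RefSeq gives no systematic ribosomal name.

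The first match is shown for 9 members, so that the element can be set beside the values below. They are the 3 most abundant transcripts (MRPL39, MRPS12, MRP10), genes with the largest differences between the states upwards (MRP2, MRPL38, RSM25) and downwards (MRPL51, MRPS18), and MRPL4, whose level differed most between replicate numbers 3 and 4 and numbers 1 and 2. Capitals mark the 8-letter element, each sequence is given 5′ to 3′ on the coding strand, and coordinates are R64. MRPL39 lies at chrXIII:251210-251233 (minus strand), MRPS12 at chrXIV:694272-694295 (minus), MRP10 at chrIV:372583-372606 (plus), MRP2 at chrXVI:876217-876240 (minus), MRPL38 at chrXI:131138-131161 (plus), RSM25 at chrIX:187936-187959 (minus), MRPL51 at chrXVI:730253-730276 (plus), MRPS18 at chrXIV:58863-58886 (plus) and MRPL4 at chrXII:1015470-1015493 (plus).
MRPL39: atttatccTGTAAATAagtaatgg
MRPS12: caacctttTGTAAATAgcaatgac
MRP10: catggcctTGTATATAcaaattaa
MRP2: tacgcactTGTAAATAaatacatg
MRPL38: taaccaccTGTATATAttgcttaa
RSM25: aaccaaccTGTATATAattaaaaa
MRPL51: attatactTGTATATAtaatttgg
MRPS18: tatattcgTGTAAATAattcgatt
MRPL4: ctctctccTGTAAATAtatatata
As 65 of the 66 genes carry the element, its presence at both ends of the range of differences tells nothing about those differences.

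Values are in TPM, a measure of transcript abundance that allows for transcript length and that the authors scaled to a common total within each library. It holds no information on depth, and a change shared by all transcripts would not show in it. In cultures measured in bulk, fewer cells with a transcript and less of it per cell cannot be told apart. Library totals lay between 999963 and 999982 TPM. STE2, STE6, BAR1 and ASG7 of MATa cells were at 6.23 TPM or more in every library, the MATalpha genes STE3 and SAG1 at 3.25 TPM or less, and URA3, LEU2 and MET17 were listed at 0. HIS3, which BY4741 carries in a partly deleted form, was at 18.4 to 55.0 TPM. MFA1 and MFA2, which encode the a-factor, were listed at 0 as well, although MATa cells make it. PUS4 averaged 6.32 ± 2.12 TPM in [BIG+] and 6.09 ± 1.75 TPM in naive cells (SD, n = 5 each). The mitochondrial mRNAs COX1, COB and ATP9 were at 45.9 TPM or more in each library. VAR1, from the same genome, was at 0.295 to 0.535 TPM. The mitochondrial 21S rRNA was at 1.39 TPM or less outside [BIG+] replicate 5.

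The levels of the 66 mRNAs spanned 52.4-fold. Over all 10 libraries their mean levels ran from 2.55 to 134 TPM with a median of 13.0, which lay at percentile 68.5 of matched nuclear mRNAs. Only 1 gene exceeded 100 TPM, 17 exceeded 20 TPM and 9 were under 5 TPM. The 6 most abundant transcripts made up 34.2% of the family's summed TPM.

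MRPL39 (bL33m, YML009C, chrXIII:251304-251516) was the most abundant member, with 122, 142, 117, 134 and 176 TPM in [BIG+] replicates 1 to 5 and 136, 152, 112, 110 and 141 TPM in naive replicates 1 to 5. The states overlapped across most of their range. MRPS12 (uS12m, YNR036C, chrXIV:694361-694822), whose bacterial counterpart S12 lines the decoding centre, had 85.6, 76.1, 84.4, 90.1 and 123 TPM in [BIG+] cells and 79.4, 85.6, 89.3, 93.5 and 94.5 TPM in naive cells. MRPL39 stood above MRPS12, and MRPS12 above the third gene, in 10 of 10 libraries. MRP10 (mS37, a small subunit protein with twin cysteine motifs), MRPL23 (uL13m), MRPL33 (uL30m) and RSM19 (uS19m) followed, and the order among these 4 changed between libraries. MRP10 averaged 53.6 ± 15.04 TPM in [BIG+] and 56.4 ± 16.5 TPM in naive cells, MRPL23 50.1 ± 11.3 and 53.6 ± 13.6, MRPL33 48.3 ± 8.57 and 49.2 ± 10.1, and RSM19 45.7 ± 13.6 and 41.8 ± 8.78, in the same order of states (SD, n = 5 each). RSM19 is the gene just upstream of MRPS12, on the same strand with 229 bases between them, and they are the only 2 members that are direct neighbours.

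At the low end stood RSM22, MRPL4, MRPS17, RSM28, MRP20 and MRPL24. RSM22 had 2.80, 2.62, 1.93, 1.47 and 3.14 TPM in [BIG+] cells and 3.25, 2.61, 2.04, 1.91 and 3.79 TPM in naive cells. MRPL4 (uL29m) had 4.399, 3.87, 1.73, 1.43 and 2.20 TPM in [BIG+] cells, and 5.36, 3.24, 1.17, 1.61 and 1.92 TPM in naive cells. Replicates 3 and 4 were the lowest for both genes in both states. MRPS17 (uS17m) averaged 3.09 ± 0.656 and 3.02 ± 0.782 TPM, RSM28 (mS46) 3.36 ± 0.313 and 3.10 ± 0.339, MRP20 (uL23m, at the exit of the peptide tunnel in bacterial ribosomes) 3.66 ± 1.82 and 3.15 ± 1.16, and MRPL24 (bL28m) 4.00 ± 1.29 and 4.17 ± 1.39, each in [BIG+] and then naive cells. Of the 65 neighbouring steps in the order of all 66 genes, only 3 held in 10 of 10 libraries, so most neighbours changed places between libraries. Differences between neighbours were not tested. The broad order was kept, with a Spearman correlation of the 66 levels between any 2 libraries from 0.918 to 0.989 (across genes, which are not independent replicates).

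**Figure D1:**
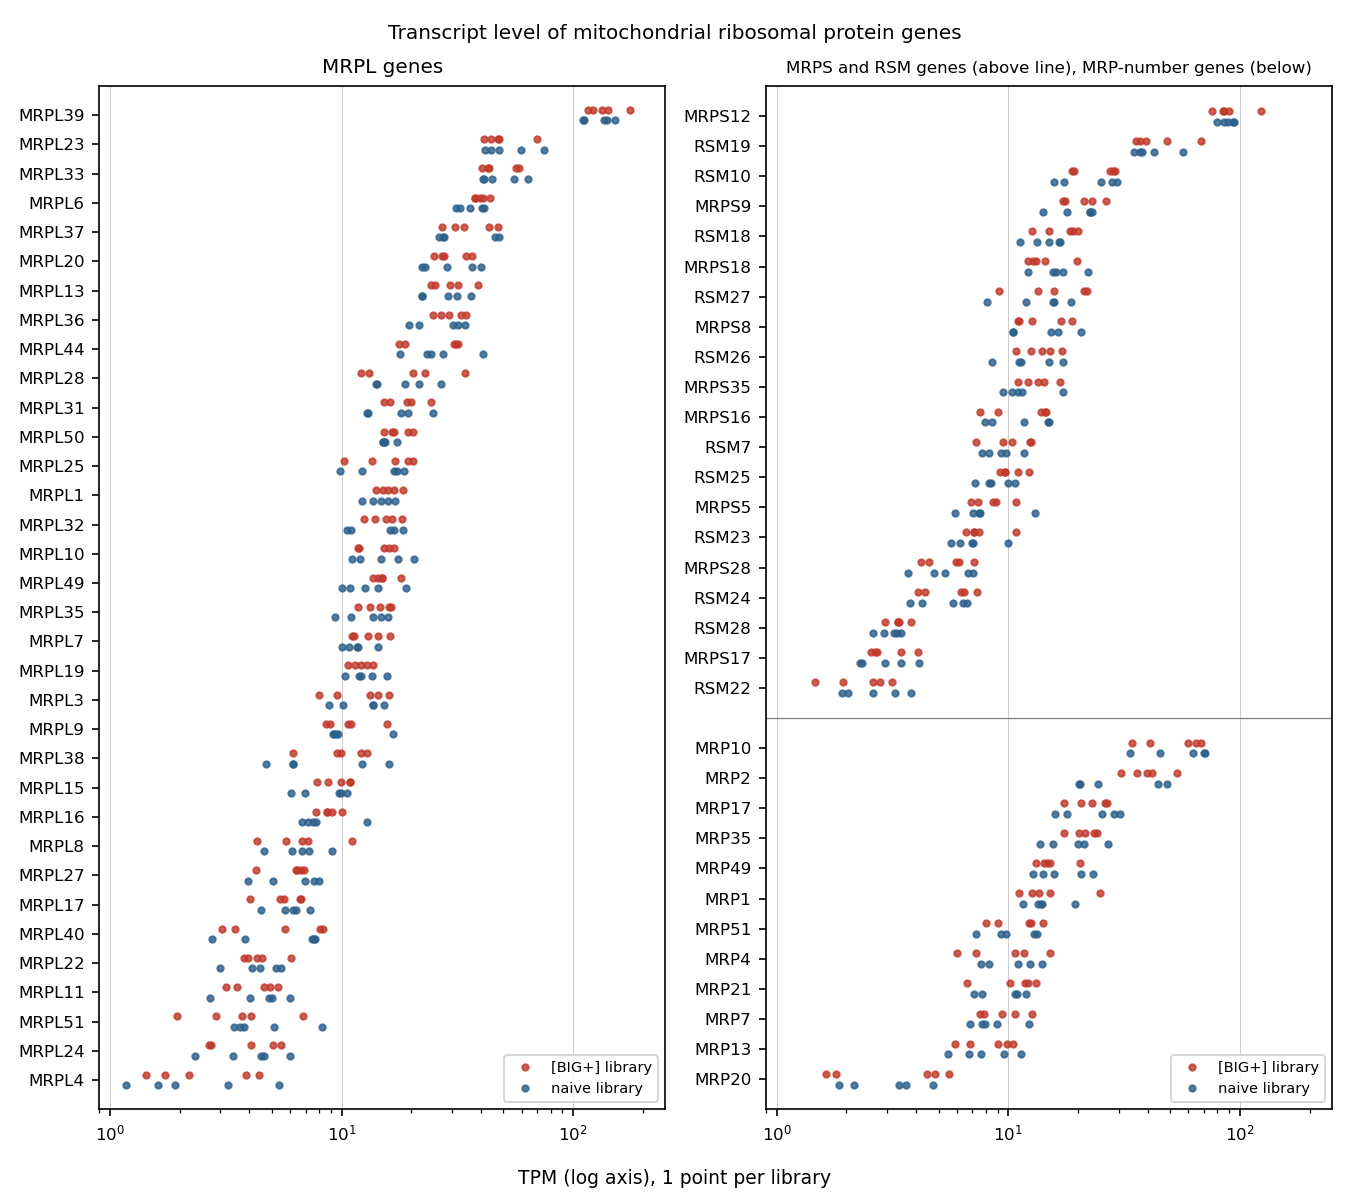
Level of each of the 66 genes in TPM on a log axis, with the 5 [BIG+] libraries (red) above the 5 naive libraries (blue) in each row, ordered by mean level within a group. The points of the 2 states overlap for every gene, and MRPL39 (mean 134 TPM) stands apart from the least abundant gene, RSM22 (mean 2.55 TPM).

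Short genes had the higher levels. Among the 10 most abundant members 8 had a coding sequence under 500 bases, against 1 of the 10 least abundant and 25 of all 66. Across the members the Spearman correlation of mean TPM with coding length was -0.598 (66 genes), and over 5270 tested nuclear mRNAs it was -0.292, both as descriptions across genes that share libraries. TPM divides by length, and how the authors set the length of a short transcript is not given in the sources used here; its part in this relation was not tested. MRPL51 (mL43, 423 bases) was the 1 short gene at the low end, with a mean of 4.36 TPM. MRPL44 (mL53) was the only member with an intron.

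**Figure D2:**
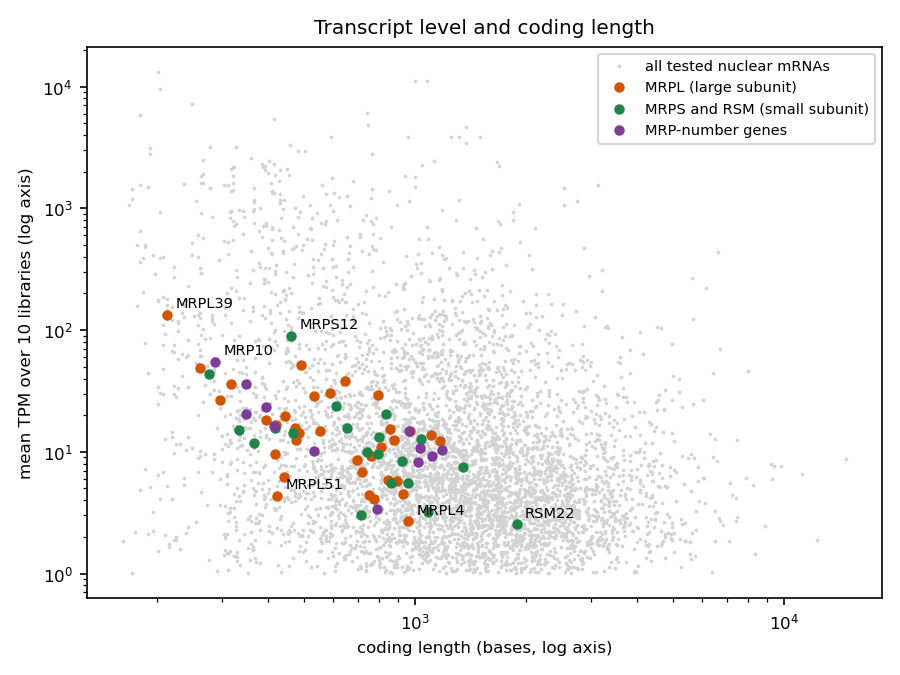
Mean TPM over the 10 libraries against coding length in bases, both on log axes, for the members by name group (coloured) and all tested nuclear mRNAs (grey). The members run from MRPL39 (213 bases, 134 TPM) to RSM22 (1887 bases, 2.55 TPM).

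Whether the genes differ between prion-carrying and naive cells was tested with limma on log2(TPM + 1) across all 5732 features with a mean of at least 1 TPM, a filter that all 66 members passed. With a threshold of 0.05 on the Benjamini-Hochberg adjusted p, 0 of 66 members were called, where 0% of all features were, and the lowest adjusted p among them was 0.999. The count of 0 is that of the whole table and says nothing particular about these genes. At an unadjusted p under 0.05 there were also 0 members, against 1.67% of all features. With the replicate number as a block, as same-numbered libraries resembled each other, 0 of 66 members were called (lowest adjusted p = 0.314), where 0.611% of all features were (0.0349% higher and 0.576% lower), and 2 members, MRP2 and RSM25, had an unadjusted p under 0.05, where 11.3% of all features did. A block by the sets 1 and 2, 3 and 4, and 5 gave 0 calls among the members, where 0.75% of all features were called. At no member did the 5 [BIG+] libraries lie wholly above or wholly below the 5 naive ones, which occurred at 0.122% and 0.262% of all features.

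The intervals from the fit without the block give the size of difference these libraries allow when the pairing is left out. The SEs given below are from the same fit unless the block is named. The 95% interval of the log2 fold change lay within 1 of 0, that is within a doubling or halving of TPM + 1, for 66 of 66 members, and for 96.8% of all tested mRNAs. It lay within a 1.5-fold change of TPM + 1 either way for 53 members, and for 65.4% of all tested mRNAs. The added 1 makes changes of the lowest genes look smaller. The widest bounds in the family were 0.99, at MRP2, and -0.84, at MRPL51. With the block the interval lay within a 1.5-fold change of TPM + 1 for 65 of 66 members, and for 5304 of the 5662 tested mRNAs. It left out 0, before adjustment, at MRP2 (0.106 to 0.737) and RSM25 (0.018 to 0.405). Replicate spread was like that of other mRNAs, with a median SD within a state of 0.307 for the members and 0.304 for all tested mRNAs (log2 scale).

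**Figure D3:**
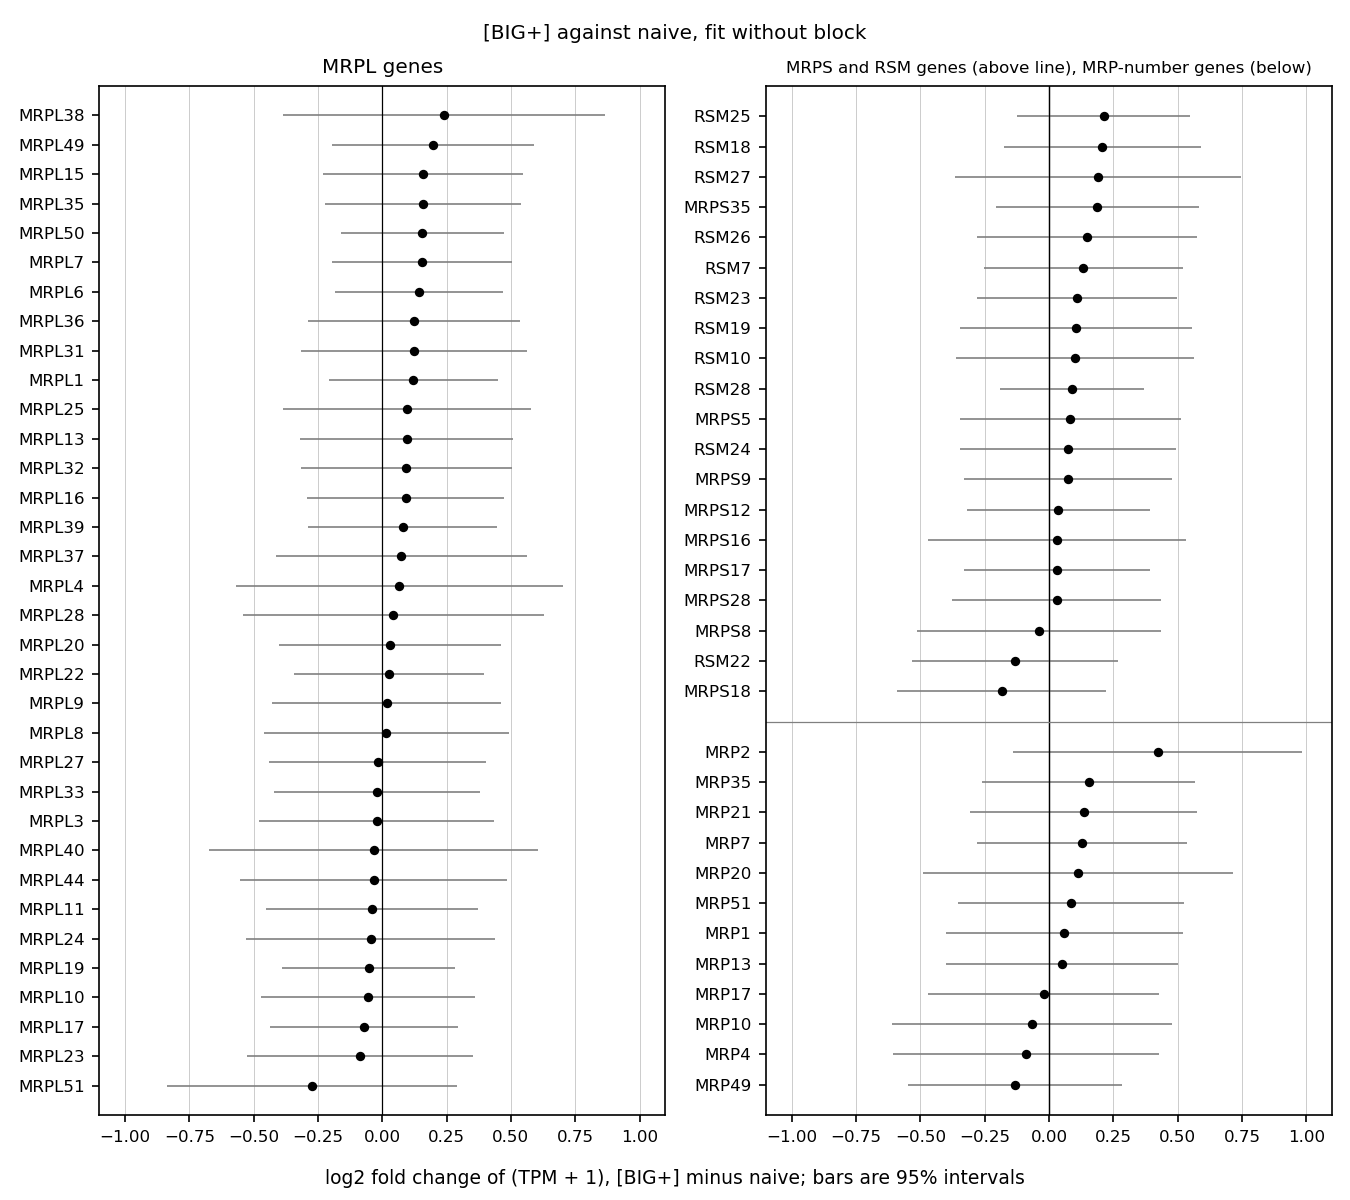
Log2 fold change of TPM + 1, [BIG+] minus naive, for each member with its 95% interval from limma without a block, ordered within each name group. Every interval crosses 0, and the values run from -0.27 at MRPL51 to 0.42 at MRP2.

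MRP2 (uS14m of the small subunit, YPR166C, chrXVI:876282-876629) had the largest difference upwards. It had 53.5, 41.8, 30.7, 39.9 and 36.0 TPM in [BIG+] cells and 44.3, 48.3, 20.4, 24.5 and 20.2 TPM in naive cells. The [BIG+] library was the higher one for replicates 1, 3, 4 and 5 and the lower one for replicate 2. On the log2 scale it was 0.42 ± 0.26 higher (SE), with a limma adjusted p of 0.999, or 0.314 with the replicate block.

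MRPL38 (uL14m, a protein of the subunit interface in bacterial ribosomes) came next in size. It had 12.2, 12.9, 6.19, 9.60 and 9.92 TPM in [BIG+] cells, against 12.3, 16.0, 4.71, 6.18 and 6.17 TPM in naive cells. Its log2 fold change of 0.24 ± 0.29 (SE) was smaller than its error without the block. With the block the SE was 0.136 (limma adjusted p = 0.552). RSM25 (mS23) had 11.01, 9.73, 9.73, 9.24 and 12.3 TPM in [BIG+] cells, against 9.93, 8.23, 7.17, 8.44 and 10.6 TPM in naive cells. It was higher in [BIG+] cells in 5 of 5 same-numbered pairs, by 0.21 ± 0.16 on the log2 scale (SE; limma adjusted p = 0.999, and 0.407 with the block). The other members among the 8 with the largest values were RSM18 (bS18m), MRPL49 (bL21m), RSM27 (mS33), MRPS35 (mS45) and MRPL35 (mL38), with log2 fold changes of 0.21, 0.20, 0.19, 0.19 and 0.16.

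In the other direction MRPL51 (YPR100W, chrXVI:729791-730213) had the largest difference. It had 1.94, 2.89, 3.72, 4.06 and 6.85 TPM in [BIG+] cells and 3.44, 5.11, 3.64, 3.78 and 8.203 TPM in naive cells, which gave -0.27 ± 0.26 (SE) on the log2 scale and a limma adjusted p of 0.999. It overlaps YPR099C, which averaged 3.18 TPM in [BIG+] and 2.73 TPM in naive cells, and the use of strand in counting is not given in the sources used here, so both values are uncertain. The same holds for MRP4, which overlaps YHL005C, and MRPL19, which overlaps YNL184C. MRPS18 (uS11m) had 14.4, 12.2, 13.2, 12.7 and 19.9 TPM in [BIG+] cells and 16.1, 17.3, 12.2, 15.6 and 22.1 TPM in naive cells, a difference of -0.18 ± 0.19. MRP49 (mL61), RSM22, MRP4 (uS2m), MRPL23, MRPL17 (mL46) and MRP10 completed the 8 lowest, with log2 fold changes of -0.13, -0.13, -0.09, -0.09, -0.07 and -0.07. MRPL23, a uL13 homologue, was lower in [BIG+] cells in 5 of 5 pairs, by 0.09 ± 0.20 on the log2 scale (SE). In all, 6 members were higher in 5 of 5 pairs (MRPL1, MRPL15, MRPL25, MRP7, RSM23 and RSM25), where 1.91% of tested mRNAs were, and 1 was lower, where 9.89% were. Besides RSM25 these 6 had log2 fold changes of 0.12 at MRPL1 (uL1m), 0.16 at MRPL15 (mL57), 0.10 at MRPL25 (mL59), 0.13 at MRP7 (bL27m) and 0.11 at RSM23 (mS29).

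The remaining members lay between these extremes. The 16 further MRPL genes, from MRPL6 (uL6m, mean 38.1 TPM) down to MRPL11 (uL10m, 4.42 TPM), had log2 fold changes from -0.06 at MRPL10 (uL15m) to 0.16 at MRPL50 (bL9m). Among them are MRPL9 (uL3m), MRPL22 (uL22m), MRPL8 (bL17m), MRPL32 (bL32m) and MRPL36 (bL31m), which have bacterial counterparts, and MRPL3 (mL44), MRPL13 (mL50), MRPL20 (mL58), MRPL27 (mL41), MRPL28 (mL40), MRPL31 (mL60) and MRPL37 (mL54), which carry mitochondrial names. The 9 further small subunit genes, from RSM10 (uS10m, 23.9 TPM) down to RSM24 (mS35, 5.52 TPM), ran from -0.04 at MRPS8 (uS8m) to 0.15 at RSM26 (mS42), and included RSM7 (uS7m), MRPS5 (uS5m), MRPS9 (uS9m), MRPS16 (bS16m) and MRPS28 (uS15m). The 6 further MRP-number genes ran from -0.02 at MRP17 (bS6m) to 0.15 at MRP35 (bL35m), with MRP1 (mS43), MRP13 (mS44), MRP21 (bS21m) and MRP51 (bS1m) between them. Each of these had a limma adjusted p of 0.999.

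As a group the members lay slightly above the bulk of mRNAs. Their median log2 fold change was 0.07, against -0.06 for all 5662 tested mRNAs, and 47 of 66 members (71.2%) had a value above 0, where 33.7% of the tested mRNAs did. No test is given for these summary values. The family median was 0.08, -0.04, 0.17, -0.02 and 0.10 in pairs 1 to 5, and that of all tested mRNAs -0.05, 0.07, 0.05, -0.18 and -0.17, so that the family lay above the other mRNAs in pairs 1, 3, 4 and 5 and below them in pair 2. The sign of the family median rested on single libraries. Without naive replicate 3 the median was -0.02 and 29 members were above 0, where 22.6% of tested mRNAs were, and without [BIG+] replicate 5 the values were -0.002 and 32 (22.2% of tested mRNAs). Among features with a mean of at least 10 TPM, 30 of 42 members were above 0 with a median of 0.08, where 47% of the tested mRNAs were, with a median of -0.01. With median-of-ratios scaling 59 members were above 0, as were 50.9% of tested mRNAs. With the libraries numbered 3 and 4 left out, an alternative chosen after seeing the data, the median was 0.04 and 42 members were above 0, where 37.5% of tested mRNAs were.

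**Figure D4:**
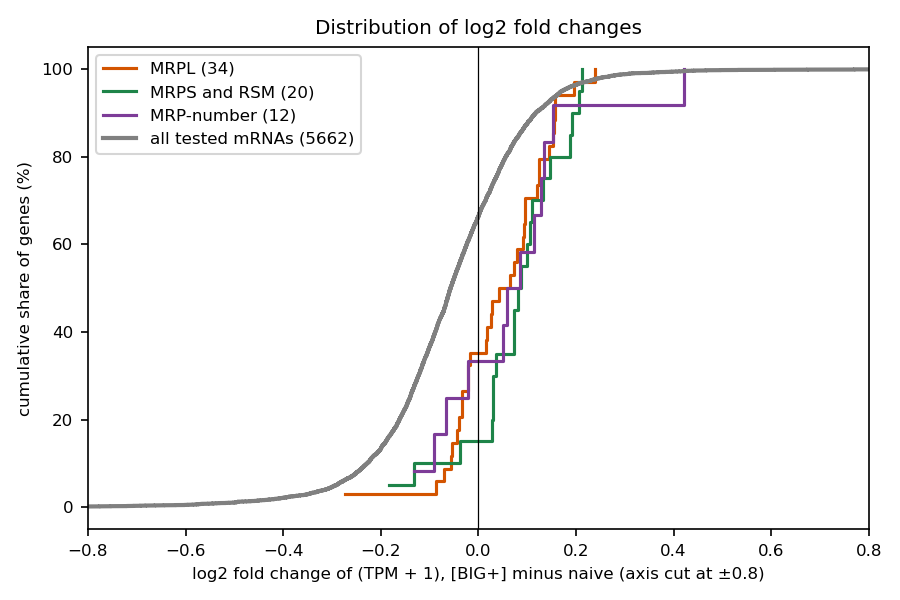
Cumulative share of genes (percent) against the log2 fold change of TPM + 1, [BIG+] minus naive, for the MRPL, the MRPS and RSM, and the MRP-number genes and for all 5662 tested mRNAs (grey). The curves of the family lie to the right of the grey one around 0, where 33.7% of tested mRNAs and 71.2% of the members are above 0, and the axis leaves out values beyond ±0.8.

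The large and the small subunit did not separate. Of the 34 MRPL genes 22 were above 0 with a median log2 fold change of 0.05, of the 20 MRPS and RSM genes 17 were, with a median of 0.09, and of the 12 MRP-number genes 8 were, with a median of 0.07. In a library, the mean log2(TPM + 1) of MRPL genes minus that of MRPS and RSM genes was 0.234, 0.255, 0.221, 0.271 and 0.222 in [BIG+] replicates 1 to 5. It was 0.239, 0.423, 0.225, 0.225 and 0.237 in naive replicates 1 to 5. Naive replicate 2 stood above the other 9 libraries. The means were 0.241 ± 0.022 in [BIG+] and 0.269 ± 0.086 in naive cells (SD, n = 5 each), and their difference of -0.029 was smaller than the SD of 0.082 between the 5 pair differences. Its sign rested on naive replicate 2: without that library the difference was 0.010, and without both libraries numbered 2 it was above 0 as well.

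RefSeq's systematic names put 38 members in the large and 27 in the small subunit, leaving out RSM22. With the MRP-number genes placed in this way and RSM22 kept in the small subunit, the same difference between the states was -0.026. With 14 further nuclear mitoribosomal genes that bear other names, such as RML2 (uL2m), MNP1 (bL12m) and NAM9 (uS4m), it was -0.018. The excess of MRPL over small subunit levels was itself tied to the naming. It was 0.241 and 0.269 in [BIG+] and naive cells by the names, and 0.053 and 0.079 once the MRP-number genes were placed. With the 14 further genes added as well it was 0.137 and 0.155. RTC6 (bL36m) averaged 121 ± 23.1 TPM in [BIG+] and 129 ± 37.2 TPM in naive cells, and SWS2 (uS13m) 18.5 ± 3.24 and 18.03 ± 5.75 TPM. Among the 14 genes with other names 0 were called (limma, both fits), with a median log2 fold change of 0.01, and 14 of 14 carried the TGTANATA letters.

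The spread by replicate number was larger than the difference between the states. The mean log2(TPM + 1) of the 66 genes was 3.99, 3.94, 3.59, 3.59 and 4.07 in [BIG+] replicates 1 to 5 and 3.94, 3.98, 3.41, 3.56 and 3.99 in naive replicates 1 to 5. Replicates 3 and 4 were the lowest of their state in both. The group means were 3.84 ± 0.23 in [BIG+] and 3.78 ± 0.27 in naive cells (SD, n = 5 each), and the [BIG+] library was the higher one in 4 of 5 pairs. The summed TPM of the family ran from 1049 to 1512 in [BIG+] and from 948 to 1413 in naive libraries.

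In libraries numbered 3 and 4, 62 of the 66 genes had a lower mean than in libraries numbered 1 and 2, where 66.5% of tested mRNAs did. The median difference was -0.43 on the log2 scale, against -0.16 over all tested mRNAs. It was -0.42 for MRPL genes, -0.41 for MRPS and RSM genes and -0.51 for MRP-number genes. These sets of numbers were formed from the likeness of the libraries, so no test is given. The steepest were MRPL4 and MRPL40 (uL24m), with differences of -1.06 and -1.05. MRPL4 averaged 1.49 TPM in libraries 3 and 4 and 4.22 TPM in libraries 1 and 2, and MRPL40 3.29 and 7.87 TPM. The 4 genes that went the other way were MRPL51, MRPS12, MRPL7 (uL5m) and MRPL16 (uL16m), by 0.19, 0.13, 0.05 and 0.01. Naive replicate 3 held the lowest value of 39 members, and [BIG+] replicate 5 the highest of 21.

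**Figure D5:**
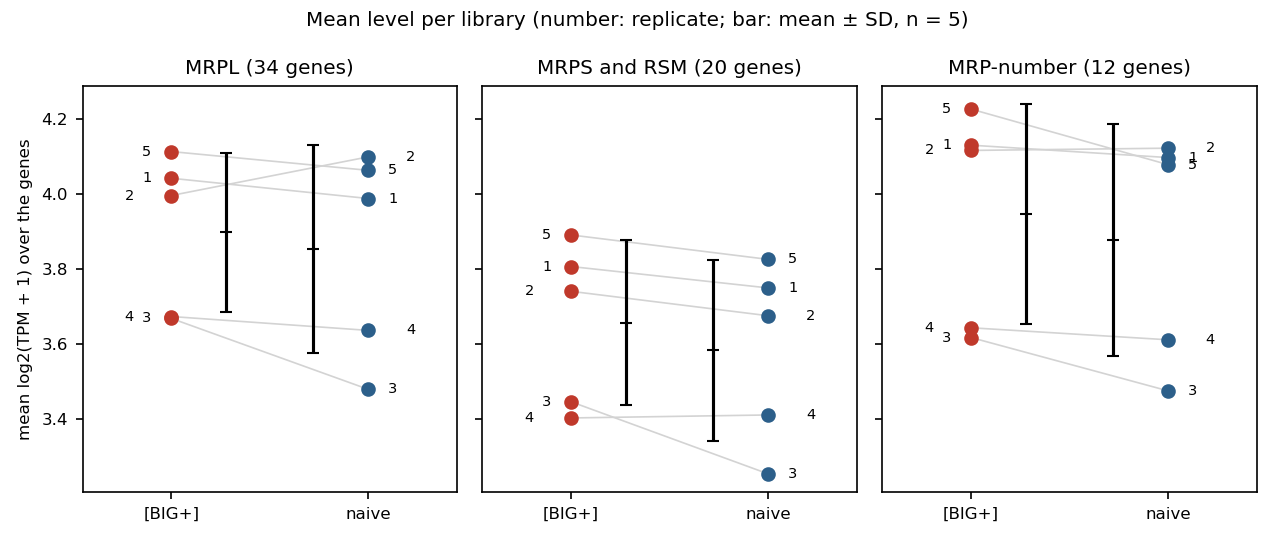
Mean log2(TPM + 1) over the genes of each name group in every library, [BIG+] (red) left of naive (blue), with replicate numbers beside the points, grey lines between same-numbered libraries and bars for the mean ± SD of 5 libraries. Replicates 3 and 4 lie lowest in both states and all 3 groups, and the means of the states lie within each other's SD.

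Other nuclear mRNAs with the TGTANATA letters after their coding sequence had fold changes near those of mRNAs without them. Over the 721 tested ones outside the mitoribosome the median log2 fold change was -0.05, against -0.06 for the 4469 without them, and 35.9% and 32.6% were above 0. Between libraries 3 and 4 and libraries 1 and 2 their medians were -0.17 and -0.15. Outside the family the letters were nearly as frequent on the opposite strand (13.1% of genes) as on the coding strand (13.4%). A match alone therefore does not mark a Puf3 target, and these values cannot tell whether such targets differ. PUF3 averaged 7.26 ± 1.53 TPM in [BIG+] cells and 7.80 ± 2.47 TPM in naive cells, with a log2 fold change of -0.07 (limma adjusted p = 0.999).

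Other genes of mitochondrial gene expression were read from fixed lists, which were chosen with earlier results of these data known. In these lists 0 genes were called in either direction, with or without the block (limma). The mitochondrial aminoacyl-tRNA synthetases had 6 of 14 values above 0 and a median log2 fold change of -0.06; MSK1, which charges lysine tRNA and was the most abundant, averaged 7.88 ± 1.79 TPM in [BIG+] and 8.02 ± 1.27 TPM in naive cells. Of the translation factors 5 of 8 tested were above 0, with a median of 0.002. TUF1, the elongation factor Tu, averaged 88.4 ± 34.6 TPM in [BIG+] and 81.1 ± 22.9 TPM in naive cells. Of 15 tested translational activators 3 were above 0, with a median of -0.07. MSS51, which activates COX1 translation, averaged 13.5 ± 6.68 TPM in [BIG+] and 16.7 ± 6.75 TPM in naive cells. Its log2 fold change was -0.31, and the unadjusted p of 0.018 in the fit with the block did not pass adjustment (limma adjusted p = 0.342).

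Of 11 genes of mitoribosome assembly, rRNA modification and membrane attachment 4 were above 0, with a median of -0.05. MAM33, a matrix protein linked to mitochondrial translation, averaged 23.2 ± 7.63 TPM in [BIG+] and 22.8 ± 9.99 TPM in naive cells, with replicates 3 and 4 lowest in both states as in the ribosomal genes. Mitochondrial transcription and DNA maintenance had 2 of 9 above 0 (median -0.02), and RIM1, a DNA-binding protein of the organelle, averaged 208 ± 29.3 and 204 ± 39.5 TPM. Protein import had 11 of 20 above 0 (median 0.02), and HSP10, the co-chaperonin, averaged 835 ± 267 TPM in [BIG+] and 744 ± 219 TPM in naive cells. The list of regulators had 2 of 8 above 0 (median -0.15). HAP1, the most abundant of them, averaged 14.8 ± 2.33 and 17.3 ± 3.05 TPM in [BIG+] and naive cells.

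The nuclear subunits of the respiratory chain and ATP synthase also lay slightly above the bulk of mRNAs, as did the cytosolic ribosomal protein genes. That bulk includes many low mRNAs. Tested mRNAs with a mean of at least 10 TPM had a median of -0.01, with 47% above 0. Apart from SDH1, SDH2, SDH3 and SDH4, the respiratory genes encode subunits that assemble with the products of mitochondrial translation. Of 34 genes 24 were above 0, with a median log2 fold change of 0.05 against 0.07 for the 66 ribosomal genes. ATP15, the epsilon subunit of ATP synthase and the most abundant, averaged 1507 ± 134 TPM in [BIG+] and 1474 ± 128 TPM in naive cells. The lists differed in how they varied by replicate number. Between libraries 3 and 4 and libraries 1 and 2 the ribosomal genes had a median difference of -0.43 with 62 of 66 lower, and the respiratory genes one of 0.04 with 16 of 34 lower. The cytosolic ribosomal protein genes had a median log2 fold change between the states of 0.06, with 102 of 134 tested genes (76.1%) above 0, and in libraries 3 and 4 a median difference of -0.35. In pairs 1 to 5 the medians of the cytosolic ribosomal protein genes were -0.001, -0.329, 0.205, 0.031 and 0.379. No test is given for the differences between lists.

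The ribosomal components encoded in mitochondrial DNA varied in other ways. VAR1 (uS3m), the only ribosomal protein of that genome, had 0.348 to 0.535 TPM in [BIG+] and 0.295 to 0.529 TPM in naive libraries and did not reach the filter. The 15S rRNA of the small subunit averaged 134 ± 83.8 TPM in [BIG+] and 45.5 ± 15.7 TPM in naive cells (limma adjusted p = 0.486, and 0.041 with the block). Its [BIG+] values (79.8 to 282 TPM) all lay above its naive values (29.1 to 68.1 TPM), as occurred at 0.122% of all features. The 21S rRNA of the large subunit was at 893 TPM in [BIG+] replicate 5 and at 1.39 TPM or less in the other 9 libraries. rRNA was depleted before sequencing, so these rRNA values also depend on what the depletion left, which was not tested.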

How the data were processed

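Per the labels' protocols, RiboZero removed rRNA from total RNA of 5 [BIG+] and 5 naive cultures. The values were deposited as TPM, scaled within each library; the depth is unknown and counting intervals cannot be given. The submitters' processing notes name Bowtie2, HTSeq and build R64. No version, annotation release or strand setting was given in the sources used here. Related libraries with spike-ins were not analysed here. The table held 7032 features besides 4 blank lines, and 5914 of its 6596 mRNAs matched an R64 protein-coding gene.

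The deposited values were put on the log2(TPM + 1) scale. Features averaging 1 TPM or more (5732) entered a two-sided limma fit (version 3.58.1, R 4.3.3; lmFit, then eBayes with trend). Benjamini-Hochberg adjustment covered all of them, and the threshold was 0.05. This scale understates the change of low genes. Differences are [BIG+] minus naive; a list is described by counts and medians, with no set test. Without a block, p-values rest on the spread between independent colonies. With a block they rest on the spread left once differences between the replicate numbers or sets are taken out.

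The states share replicate numbers. Over all tested features, the deviations of same-numbered libraries from their state's mean had correlations of 0.743, 0.569, 0.531, 0.355 and 0.475 for numbers 1 to 5. The main fit had no block, and because of this likeness a second fit took the replicate number as a block. Some libraries with other numbers were as alike or more so. [BIG+] replicate 4 had 0.521 with naive replicate 3, and [BIG+] replicate 2 had 0.571 with naive replicate 1. The labels do not state a shared day or batch, and the sets 1 and 2, 3 and 4, and 5 show the same likeness.

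The members, lists, tests and alternatives were chosen with earlier results of these data known. Genes named with values were the 6 most and 6 least abundant members, the 8 with the largest and the 8 with the smallest log2 fold change, members past the threshold or with no overlap between the states, members with 1 sign in 5 of 5 pairs and an unadjusted p under 0.01 with the block, and the most abundant gene of each list where none passed. MRPL1, MRPL7, MRPL15, MRPL16, MRPL25, MRPL40, MRPL44, MRP7, RSM23, RML2, MNP1, NAM9, PUF3, the markers of the strain, the genes of mitochondrial DNA and the remaining members were added after their values were seen. Sequences and positions come from RefSeq's R64 genome and annotation. The fit was tested on simulated data. Python 3.11.15, pandas 2.3.3 and matplotlib 3.10.9 were used.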

Additional observations from a re-analysis of the deposited data

Results flagged for a closer look

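A library standing apart from the other 4 of its state by Dixon's test was found in 19 of 172 groups tested, which covered all 66 members, 15 other genes given with values, the family means and the subunit difference; chance gives about 1 in 20. Among the members it was found in 10 of 132 groups. In [BIG+] cells these were MRP49 in replicate 2 (20.4 TPM, next value 15.1), MRPL27 in replicate 4 (4.27 TPM, the lowest, next value 6.35), and in replicate 5 MRPL23 (69.6 TPM, next 48.1), MRPS18 (19.9 TPM, next 14.4) and RSM23 (10.8 TPM, next 7.44). In naive cells they were MRPL50 in replicate 2 (17.3 TPM, next value 15.5), and in replicate 5 MRPL9 (16.7 TPM, next 9.70), MRPL16 (12.9 TPM, next 7.80), MRPS35 (17.2 TPM, next 11.5) and MRPS5 (13.0 TPM, next 7.56). Of these 10 libraries 7 were numbered 5. The excess of MRPL over MRPS and RSM genes was 0.423 on the log2 scale in naive replicate 2, with the next value at 0.239.

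Replicate 5 also stood apart for other genes. TUF1 was at 150 TPM in [BIG+] replicate 5 (next 78.1) and at 122 TPM in naive replicate 5 (next 76.4), and MSS51 at 25.3 TPM (next 11.9) and 28.4 TPM (next 15.7) in the same libraries. HSP10 was at 1130 TPM in naive replicate 5 (next 686). The 15S rRNA was at 282 TPM in [BIG+] replicate 5 (next 113), and the 21S rRNA at 893 TPM there (next 1.39) and at 0.983 TPM in naive replicate 5 (next 0.591).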

How the results depend on the processing

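Of the 66 members 0 were called (limma) in each of the alternatives tried, among them other pseudocounts, filters and scalings, each library or pair left out, and the block by replicate number or by sets; the lowest adjusted p was 0.0885, for the replicate block without replicate 2. The pathway lists likewise gave 0 calls. Over all features the replicate block gave 35 calls against 0 without it. With each pair left out in turn the blocked count ran from 10 to 35 (16, 14, 10, 18 and 35 without numbers 1 to 5), and without the block each library left out gave 0. With the block and another setting the count was 32 with a pseudocount of 0.1, 31 with a pseudocount of 10, 17 with no filter, 54 with the filter at 10 TPM, 14 with median-of-ratios scaling, 34 with scaling to nuclear mRNA, 17 with quantile normalization and 9 with the samples numbered 3 and 4 left out. The block by sets gave 43. Without a block the filter of 10 TPM gave 1 call, and the 3 other scalings gave 3 each. Members above 0 numbered 30 of the 42 that passed the filter of 10 TPM, with or without the block, where 47% of mRNAs were above 0. With 1 library left out they ran from 29 (without naive replicate 3) to 59, and the family median from -0.02 to 0.141. Quantile normalization put 56 members above 0, as it did 50.8% of tested mRNAs. The difference between the subunits moved by less than its spread between pairs in every alternative, but was 0.010 without naive replicate 2, and above 0 too without both libraries numbered 2, against -0.029. TPM keep no depth, so the precision of the lowest members cannot be set from reads.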
